A study of Mus musculus with 2 samples.

Results

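The 10 genes described here are Trim12a, Trim12c, Trim14, Trim21, Trim25, Trim26, Trim30a, Trim30d, Trim34a and Trim56, tripartite motif (TRIM) genes known for roles in innate immunity. They were taken by symbol from the 22060 genes of the deposited count table, in which all 10 were found, each on 1 Ensembl identifier. The mutant cells were bone marrow-derived macrophages with a STAT2 protein that has alanine for threonine at residue 403 (T403A), and the cells set against them were wild-type (WT) macrophages. Both came from marrow of C57BL/6 mice aged 8 weeks, cultured over 7 days in M-CSF (which turns marrow progenitors into macrophages), and both were left untreated (0 h). Each group is 1 library, so each difference is one between 2 libraries, not shown to be one between genotypes, and no p-value is given. The labels do not say how many animals gave marrow or how the T403A allele was made.

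TRIM proteins share a RING finger, B-box domains and a coiled coil, followed in many of them by a C-terminal domain that binds a target. The RING finger recruits a ubiquitin-charged E2 enzyme, which makes most of the family ubiquitin ligases; TRIM14 is an exception that has no RING finger and acts as an adaptor. Many of these genes are induced by type I interferon through a complex that contains STAT2 and IRF9 and binds the interferon-stimulated response element (ISRE). In macrophages several TRIM proteins act on the sensors and kinases that detect viral nucleic acid.

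The promoters of these genes were searched for the ISRE core because STAT2 is part of the complex that binds it. RefSeq sequence on GRCm38.p6, from 250 bases before to 50 bases after an annotated start site, was used for 9 of the 10 genes (all but Trim14). The core, which is GAAA, any 2 bases and GAAA again, was searched on both strands, so it can also read TTTC, any 2 bases and TTTC. It was present in 7 of those 9 genes, namely Trim12a, Trim12c, Trim21, Trim26, Trim30a, Trim30d and Trim34a, and in 8 of their 10 promoters, since Trim30a has a pair of start sites. Of all 32851 promoters in the table, 3.44% hold this core. The core was not found in the windows of Trim25 and Trim56. The STAT dimer motif TTCNNNGAA, a palindrome, was in none of the 10 promoters and is in 8.30% of all promoters. A match is a description of letters and not a mapped binding site.

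The promoters below are shown for the genes at the ends and in the middle of the range of ratios, 5′ to 3′ on the strand of the gene, with every ISRE core in capitals. Trim30d (chr7:104507800-104508099, minus strand), Trim30a (chr7:104465144-104465443, minus), Trim34a (chr7:104244207-104244506, plus), Trim25 (chr11:88999153-88999452, plus), Trim21 (chr7:102565433-102565732, minus) and Trim26 (chr17:36836896-36837195, plus) follow in the order of their ratios, the lowest first.
Trim30d: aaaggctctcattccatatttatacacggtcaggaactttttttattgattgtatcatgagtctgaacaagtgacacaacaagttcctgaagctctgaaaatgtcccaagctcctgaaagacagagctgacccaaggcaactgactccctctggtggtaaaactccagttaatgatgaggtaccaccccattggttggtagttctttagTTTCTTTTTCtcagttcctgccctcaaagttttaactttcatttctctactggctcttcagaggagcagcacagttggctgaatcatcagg
Trim30a: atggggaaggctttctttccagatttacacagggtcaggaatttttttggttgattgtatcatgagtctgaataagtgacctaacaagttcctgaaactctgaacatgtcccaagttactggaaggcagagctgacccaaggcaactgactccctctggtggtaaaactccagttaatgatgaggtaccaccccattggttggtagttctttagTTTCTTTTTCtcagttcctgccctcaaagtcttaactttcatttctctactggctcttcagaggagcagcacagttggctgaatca
Trim34a: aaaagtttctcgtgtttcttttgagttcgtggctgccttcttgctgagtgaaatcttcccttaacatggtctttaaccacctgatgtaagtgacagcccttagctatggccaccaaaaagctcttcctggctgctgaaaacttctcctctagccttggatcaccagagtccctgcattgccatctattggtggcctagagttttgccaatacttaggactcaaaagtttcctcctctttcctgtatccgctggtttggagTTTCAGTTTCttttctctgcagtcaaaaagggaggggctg
Trim25: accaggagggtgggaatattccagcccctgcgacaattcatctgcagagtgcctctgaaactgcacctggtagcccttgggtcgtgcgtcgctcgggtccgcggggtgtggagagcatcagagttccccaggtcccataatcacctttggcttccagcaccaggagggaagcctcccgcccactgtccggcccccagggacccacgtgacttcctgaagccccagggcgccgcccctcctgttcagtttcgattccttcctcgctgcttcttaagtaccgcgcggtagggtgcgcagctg
Trim21: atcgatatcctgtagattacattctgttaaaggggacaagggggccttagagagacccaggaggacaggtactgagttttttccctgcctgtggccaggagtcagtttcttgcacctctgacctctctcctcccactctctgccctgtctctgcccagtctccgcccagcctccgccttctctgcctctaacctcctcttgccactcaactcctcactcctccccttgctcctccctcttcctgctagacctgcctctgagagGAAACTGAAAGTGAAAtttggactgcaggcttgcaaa
Trim26: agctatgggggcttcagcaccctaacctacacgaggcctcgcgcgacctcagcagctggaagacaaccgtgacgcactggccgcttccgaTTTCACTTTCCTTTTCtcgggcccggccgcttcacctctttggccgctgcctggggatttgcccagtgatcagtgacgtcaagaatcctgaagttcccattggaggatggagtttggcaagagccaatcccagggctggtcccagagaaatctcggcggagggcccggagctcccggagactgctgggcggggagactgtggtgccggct

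In these promoters the core lay within 50 bases of the start site in every gene that had one, except in Trim26. It was at -41 to -32 in Trim30d and at -36 to -27 in Trim30a, counting back from the start site, where both genes have the same 10 bases, TTTCTTTTTC. The promoters of this pair share an unbroken run of 118 bases (-129 to -12 in Trim30d), so they are not independent examples. The second start site of Trim30a has the same core at 3 to 12 bases after the start. In Trim12a and Trim12c, another pair of near copies, the core reads TTTCTGTTTC on the gene's strand and starts 11 bases after the start site in Trim12a and 29 bases before it in Trim12c (position -29). Trim34a has TTTCAGTTTC at 11 to 20 bases after the start site. Trim21 and Trim26 each hold a pair of overlapping cores, at 14 to 29 bases after the start in Trim21 and at -160 to -145 in Trim26. Trim30d, Trim30a and Trim34a, the members with the lowest ratios, each hold a core, as do Trim21 and Trim26, the members with ratios nearest to 1. Trim25 and Trim56, with no core in this window, were 2.15-fold and 1.53-fold lower in T403A. A link between the core and the ratio was not tested.

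The library of T403A cells held 18658381 counts and that of WT cells 16033032. Reads of the 10 genes made up 0.0766% of the T403A library (95% Wilson interval 0.0753 to 0.0778) and 0.162% of the WT library (0.160 to 0.164). Levels are given as CPM, counts relative to the library total after scaling by TMM, a method that matches the bulk of genes between libraries, and every interval covers counting error only. Stat2 itself was at 84.4 CPM in T403A and 376 CPM in WT, 4.46-fold lower (4.22 to 4.71); a 1-residue substitution need not change the count of its gene, so this does not check the labels. All 10 macrophage markers examined, including Csf1r, Adgre1 and Lyz2, were detected in both libraries, with a summed level of 39558 CPM in T403A and 51391 CPM in WT. Of these 10 markers, 5 were lower in T403A by at least 1.5-fold and none was higher. Csf1r and Lyz2 were within 1.5-fold, Adgre1 was at 1541 CPM in T403A and 2845 CPM in WT, and Fcgr1, the lowest by ratio, was at 52.3 CPM in T403A and 458 CPM in WT. Exons of Hmgxb3 overlap 15.1% of the exonic bases of Csf1r on the opposite strand. The monocyte markers summed to 201 CPM in T403A and 817 CPM in WT, with 5 of 7 measured genes lower and none higher, and all 8 were detected in both libraries. Neutrophil markers summed to 174 CPM in T403A and 287 CPM in WT (7 of 10 detected in each, with Ly6g and Elane at 0 in both). Most of this was Csf3r, at 165 CPM in T403A and 280 CPM in WT. Of 5 measured neutrophil markers, 2 were lower in T403A and 2 were higher (S100a9 and Ltf). Lymphocyte markers summed to 94.3 and 117 CPM in T403A and WT (5 of 11 detected in each, with Cd3e, Cd3g, Cd8a and Nkg7 among those at 0 in both), mostly from Il7r. Dendritic cell markers summed to 116 CPM in T403A and 95.3 CPM in WT, mostly from Tcf4, at 113 CPM in T403A and 92.7 CPM in WT. Of 3 measured dendritic cell markers, 1 was lower and 1 higher. The stromal, erythroid and mast cell lists summed to 19.9, 8.07 and 2.61 CPM in T403A and to 19.2, 38.7 and 8.20 CPM in WT. Of 6 measured stromal and endothelial markers, 3 were lower and 1 was higher. The higher one, Kitl, was at 16.0 CPM in T403A and 9.07 CPM in WT. Of 4 measured erythroid and megakaryocyte markers, 2 were lower and 0 higher. Of 2 measured mast cell, basophil and eosinophil markers, 1 was lower and 1 higher. The part of these other cell types in the TRIM values was not tested.

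Of the 10 genes, 8 were lower and none was higher in the T403A library. A gene counts as lower or higher here when the ratio of its counts, scaled by TMM, is at least 1.5-fold and its exact 95% counting interval excludes 1. Over the 11199 measured genes, those with 20 or more counts in the sum of both libraries, 10.8% met this rule as lower and 13.5% as higher, so the share of lower genes among the 10 (80%) stood well above that over all genes. The 10 genes were chosen with earlier results of these data known, so this excess is not independent of the choice. With scaling by total counts, 6 of the 10 were lower, beside 7.95% of all measured genes. The median log2 ratio of the 10 genes was -0.91, against 0.01 over all measured genes. Their summed level was 716 CPM in T403A and 1734 CPM in WT, 2.42-fold lower (2.37 to 2.47). No member was lost to the count filter, and each had more than 400 counts in both libraries. In bulk RNA, fewer cells of a type and less RNA per cell cannot be told apart.

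The Trim30 genes had the lowest ratios. Trim30d (ENSMUSG00000057596, protein-coding, chromosome 7, 104470014 to 104507849 on the minus strand of GRCm38) had 442 counts in T403A and 2742 in WT, which is 22.2 CPM in T403A and 183 CPM in WT. It was 8.25-fold lower in T403A (95% counting interval 7.46 to 9.14), the largest fold among the 10. Its role is little described, and it is a near neighbour and paralogue of Trim30a. Trim30a (ENSMUSG00000030921, chromosome 7, 104409025 to 104465193, minus strand), whose mouse protein promotes loss of the kinase adaptors TAB2 and TAB3 and so restrains NF-kB signalling, had 1972 counts in T403A and 7238 in WT. That is 98.9 CPM in T403A and 482 CPM in WT, 4.88-fold lower (4.64 to 5.13). By CPM, which does not allow for gene length, Trim30a had the highest value of the 10 genes in WT. Its interval there (471 to 494) overlapped that of Trim25 (466 to 489). In T403A its CPM was below those of Trim25 and Trim56, while per length it was at rank 2, behind Trim25.

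Trim34a and the Trim12 pair, which lie beside Trim5 on chromosome 7, differed less. Trim34a (ENSMUSG00000056144, 104244457 to 104262234, plus strand) is the mouse relative of human TRIM34, which takes part in restriction of retroviral capsids. It had 422 counts in T403A and 932 in WT, or 21.2 CPM and 62.1 CPM in T403A and WT, 2.94-fold lower (2.61 to 3.30). Trim12c (ENSMUSG00000057143, 104338754 to 104353362, minus strand), whose mouse protein binds the signalling ligase TRAF6, had 925 counts in T403A and 1233 in WT. At 46.4 CPM in T403A and 82.2 CPM in WT it was 1.77-fold lower (1.63 to 1.93). Trim12a (ENSMUSG00000066258, 104299894 to 104315466, minus strand) has a longest annotated coding region of 891 bases, shorter than the 1491 bases of Trim12c. It had 816 counts in T403A and 982 in WT, or 40.9 CPM in T403A and 65.5 CPM in WT, 1.60-fold lower (1.46 to 1.76). With scaling by total counts Trim12a was 1.40-fold lower and no longer met the rule.

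Trim25, Trim14 and Trim56, which act with sensors of viral nucleic acid or their adaptors, were lower by a smaller fold than the Trim30 pair. Trim25 (ENSMUSG00000000275, chromosome 11, 88999376 to 89020293, plus strand), the ligase that ubiquitinates the RNA sensor RIG-I and is a cofactor of the antiviral protein ZAP, had 4419 counts in T403A and 7162 in WT. It was at 222 CPM in T403A and 477 CPM in WT, 2.15-fold lower (2.07 to 2.24). Trim14 (ENSMUSG00000039853, chromosome 4, 46493781 to 46536141, minus strand), an adaptor of the mitochondrial signalling protein MAVS, had 649 counts in T403A and 968 in WT. Its levels of 32.5 CPM in T403A and 64.5 CPM in WT were 1.98-fold apart (1.79 to 2.19). Exons of Nans overlap 31.3% of the exonic bases of Trim14 on the opposite strand, and the strand setting of the counting is not given in the sources used here. Nans was at 46.4 CPM in T403A and 36.7 CPM in WT, 1.26-fold higher (1.14 to 1.41). Trim56 (ENSMUSG00000043279, chromosome 5, 137105644 to 137116209, minus strand), described in human cells as a ligase that acts on STING, had 2100 counts in T403A and 2414 in WT. At 105 CPM in T403A and 161 CPM in WT it was 1.53-fold lower (1.44 to 1.62), just inside the 1.5-fold rule. It fell outside the rule at 1.34-fold with scaling by total counts, and also with upper-quartile scaling.

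Trim21 and Trim26 were within 1.5-fold and so counted as neither lower nor higher. Trim21 (ENSMUSG00000030966, chromosome 7, 102557921 to 102565486, minus strand) encodes the cytosolic antibody receptor that sends antibody-coated virus to the proteasome. It had 822 counts in T403A and 880 in WT, and its 41.2 CPM in T403A and 58.7 CPM in WT differed 1.42-fold (1.29 to 1.57), just outside the rule. Trim26 (ENSMUSG00000024457, chromosome 17, 36837134 to 36859398, plus strand), a ligase described as acting on IRF3 and on the NF-kB regulator NEMO, had 1719 counts in T403A and 1463 in WT. Its levels were 86.2 CPM in T403A and 97.5 CPM in WT, 1.13-fold lower in T403A (1.05 to 1.21) with TMM and 0.99-fold with scaling by total counts, where the direction turned to a log2 ratio of 0.01. The intervals of both genes excluded 1 with TMM, so counting error alone does not span the difference in either.

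**Figure D1:**
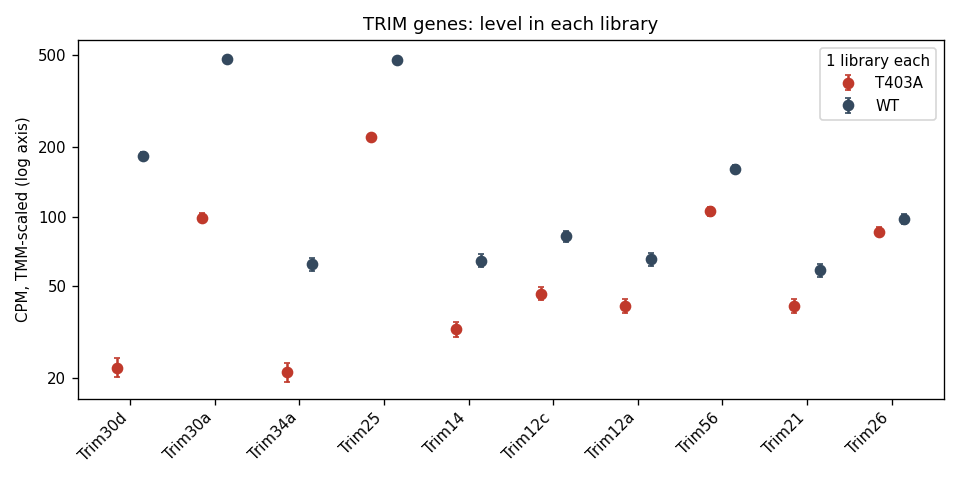
Level of each TRIM gene in CPM after TMM scaling, on a log axis, with 1 point per library (T403A left, WT right) and exact 95% Poisson intervals that cover counting error only. Every T403A point lies below its WT point, from 22.2 against 183 CPM for Trim30d to 86.2 against 97.5 CPM for Trim26.

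**Figure D2:**
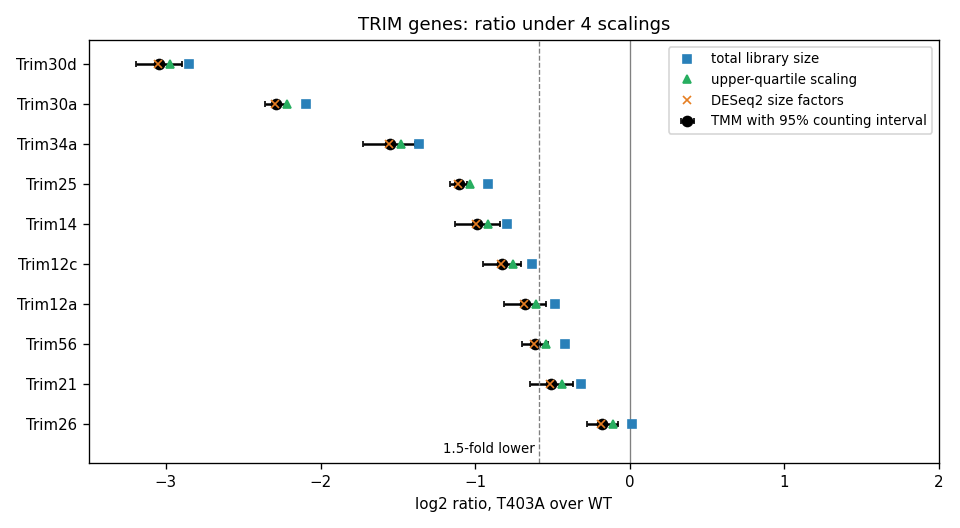
Log2 ratio of T403A over WT for each TRIM gene, where black points show TMM scaling with the 95% counting interval and the other marks show 3 other scalings; the dashed line marks 1.5-fold lower. The order of genes is the same under every scaling, and scaling by total counts moves all points to the right, with Trim26 at 0.01.

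Because the scaling moves all ratios together, the genes were also compared with each other within each library, which needs no scaling. Neighbours in the order of ratios differed beyond counting error in 4 of 9 pairs. That order was taken from these same counts, so the direction within each pair was given in advance. The ratio of Trim30d to Trim30a counts was 0.224 in T403A and 0.379 in WT, a ratio of ratios of 0.592 (exact 95% interval 0.528 to 0.662). Thus Trim30d was lower relative to Trim30a in the T403A library, by 1.69-fold. Trim30a relative to Trim34a (0.602, interval 0.530 to 0.684), Trim34a relative to Trim25 (0.734, 0.649 to 0.829) and Trim21 relative to Trim26 (0.795, 0.705 to 0.896) also stood apart. From Trim25 through Trim14, Trim12c, Trim12a and Trim56 to Trim21, no neighbouring pair was separated, with ratios of ratios between 0.894 and 0.955. Trim12a and Trim12c kept nearly the same proportion, at 0.882 counts of Trim12a per count of Trim12c in T403A and 0.796 in WT, with an interval of 0.974 to 1.26 for the ratio of the ratios. Set against Trim26, each of the other 9 genes was lower in the T403A library. The folds ran from 1.26-fold (1.12 to 1.42) for Trim21 to 7.29-fold (6.44 to 8.26) for Trim30d. Trim26 had the highest ratio among the genes compared here, by these same counts, so the direction for all 9 was given in advance.

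The order of abundance among the genes differed between the libraries. Levels between genes are given per length, as CPM per kilobase of the deposited gene length. In T403A the highest level was that of Trim25 at 38.5 CPM per kb, ahead of Trim30a at 24.1, and in WT it was that of Trim30a at 117 CPM per kb, ahead of Trim25 at 83.0. Trim30d had the lowest level of the 10 genes in T403A, at 5.90 CPM per kb (5.36 to 6.47), and was at rank 3 in WT, with 48.6 CPM per kb (46.8 to 50.5). Trim26 was at rank 3 in T403A, with 12.6 CPM per kb, and at rank 9 in WT, with 14.2 CPM per kb. In T403A the pairs of neighbours Trim26 and Trim12c, Trim56 and Trim21, Trim34a and Trim14, and Trim14 and Trim12a did not differ beyond counting error. In WT this held for Trim21 and Trim14 and for Trim14 and Trim26. Trim25 and the Trim30 pair took 47.8% of all reads of the 10 genes in T403A (95% Wilson interval 47.0 to 48.6) and 65.9% in WT (65.3 to 66.5). Trim30a alone took 13.8% of these reads in T403A and 27.8% in WT, while Trim25 held 30.9% in T403A and 27.5% in WT.

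The genes of the chromosome 7 cluster were then set beside their neighbours. The cluster holds 10 TRIM genes of the table within 289057 bases (104218793 to 104507849), 5 of which are described above. Of the 9 that were measured, 8 were lower in T403A and none higher, beside 10.8% lower and 13.5% higher over all measured genes. With scaling by total counts, Trim12a and Trim5 no longer met the rule. Trim30c, a further Trim30 paralogue, had 26 counts in T403A and 299 in WT and was 15.3-fold lower (10.2 to 23.8). Trim30b had 29 counts in T403A and 146 in WT and was 6.69-fold lower (4.47 to 10.3). Trim5, the mouse relative of the human retroviral restriction factor TRIM5, was at 17.4 CPM in T403A and 28.5 CPM in WT, 1.64-fold lower (1.42 to 1.90). Trim6, at the other end of the cluster, had 45 counts in T403A and 36 in WT and met neither condition, at 1.06-fold lower (0.666 to 1.69). Trim34b had 2 counts in T403A and 3 in WT and was not measured. The 4 Trim30 genes thus had the largest folds of the cluster, 4.88 or more, and those from Trim34a to Trim12c lay between 1.60-fold and 2.94-fold. The 5 described genes inside the cluster had a median of 2.94-fold lower (1.60 to 8.25), and the 5 outside it, Trim21 included, a median of 1.53-fold (1.13 to 2.15), so the ranges overlap.

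**Figure D3:**
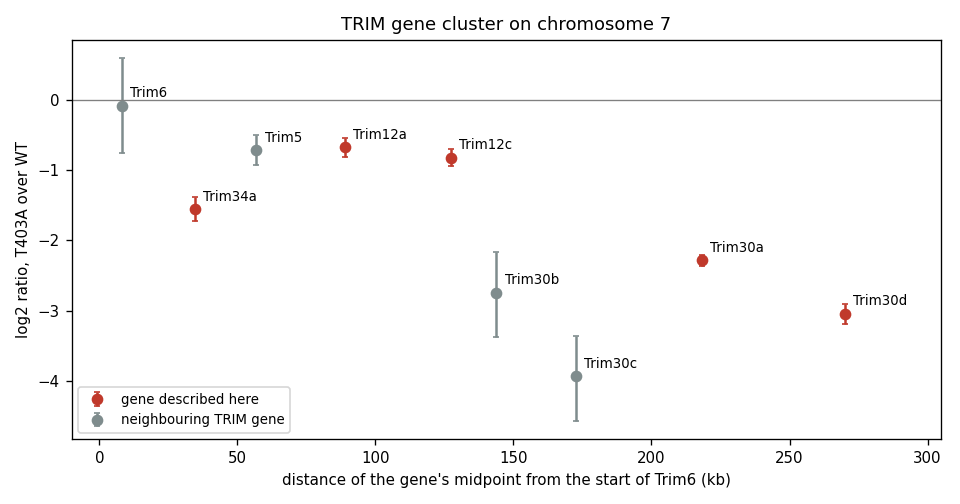
Log2 ratio of T403A over WT for the 9 measured TRIM genes of the chromosome 7 cluster, against the distance of each gene's midpoint from the start of Trim6 in kilobases; bars are 95% counting intervals. The 4 Trim30 genes lie lowest, at folds from 4.88 to 15.3, and Trim6 is 1.06-fold lower with an interval that spans a ratio of 1.

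Reads of near copies limit how the cluster can be resolved. Of the distinct 100-base windows in the annotated transcripts of Trim34a, 1045 of 2681 also occur in transcripts of another gene, 563 of them in Trim34b and 482 in the antisense gene Gm47248, counting both strands. For Trim12c the share is 8.05% and for Trim12a 3.29%, mostly with Trim5. Trim30a and Trim30d share 176 windows, which is 4.41% of those of Trim30a and 4.57% of those of Trim30d. Trim21 and Trim25 share no 100-base window. With 50-base windows the shares rise to 59.7% for Trim34a, 33.7% for Trim12c and 10.5% for Trim12a. At that length they are 5.98% for Trim30a, 7.49% for Trim30d, 0.216% for Trim21 and 0.295% for Trim25. How reads that map to several places were counted is not given in the sources used here.

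The rest of the TRIM family went in both directions. The table has 62 further genes of the family, of which 16 had 0 counts in both libraries, 12 had too few counts and 34 were measured. Of these 34, 6 were lower in T403A, 4 higher and 24 within the rule's limits (median log2 ratio 0.05). The lower share of 17.6% and the higher share of 11.8% are set beside 10.8% and 13.5% over all measured genes. Besides Trim5, Trim30b and Trim30c, the lower genes were Mefv, Pml and Mid1. Mefv, which encodes the inflammasome protein pyrin, was at 9.08 CPM in T403A and 87.8 CPM in WT, 9.67-fold lower (8.27 to 11.4). Pml, the scaffold of nuclear bodies, was at 59.7 CPM in T403A and 149 CPM in WT, 2.50-fold lower (2.33 to 2.69). Mid1, a ligase bound to microtubules, had 78 counts in T403A and 113 in WT and was 1.93-fold lower (1.43 to 2.60); transcripts of another gene overlap 14.2% of its exonic bases on the opposite strand.

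The 4 higher TRIM genes were none of the 10 described above. Trim16, whose human protein takes part in the clearance of damaged lysosomes, was at 38.2 CPM in T403A and 14.3 CPM in WT, 2.68-fold higher (2.30 to 3.13); exons of Fbxw10 overlap 5.19% of its exonic bases on the same strand. Trim2 had 94 counts in T403A and 14 in WT and was 5.05-fold higher (2.87 to 9.59). Trim59 was at 18.4 CPM in T403A and 10.5 CPM in WT, 1.75-fold higher (1.45 to 2.13). Trim46 had 54 counts in T403A and 19 in WT and was 2.14-fold higher (1.25 to 3.82), and exons of Krtcap2 overlap 6.30% of its exonic bases on the opposite strand. None of the 10 genes met the rule as higher with TMM or with any of the 3 other scalings.

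Genes whose products the TRIM proteins act on or with were more often lower than higher. Of 27 partners and substrates, all measured, 11 were lower in T403A, 1 was higher and 15 were within the rule's limits (median log2 ratio -0.39). The shares of 40.7% lower and 3.70% higher are set beside 10.8% and 13.5% over all measured genes. Among the lower genes, Irf7, Isg15, Dhx58, Ddx58 and Ifih1 are also on the list of interferon-stimulated genes described next. The RNA sensor genes Ddx58 (RIG-I, the target of TRIM25) and Ifih1 were among the lower ones. Ddx58 was at 72.6 CPM in T403A and 442 CPM in WT, 6.08-fold lower (5.75 to 6.45), a larger fold than that of Trim25. Zc3hav1, which encodes ZAP, was 1.79-fold lower (1.72 to 1.87). The 2 genes with the lowest ratios were Irf7, at 18.4 CPM in T403A and 581 CPM in WT, and Isg15, the ubiquitin-like modifier that TRIM25 can conjugate, at 8.42 CPM in T403A and 161 CPM in WT. A limit for Irf7 is that exons of Phrf1 overlap 1.19% of its exonic bases on the opposite strand. Tab2 and Tab3, the targets of TRIM30a, were within 1.5-fold, at log2 ratios of -0.14 and -0.22. Mavs, the partner of TRIM14, was at 74.5 CPM in T403A and 63.8 CPM in WT, a ratio of 1.17 (1.08 to 1.27). The 1 higher gene was Tmem173, which encodes STING, at 52.5 CPM in T403A and 31.5 CPM in WT, 1.67-fold higher (1.49 to 1.86). Ikbke was 1.84-fold lower (1.79 to 1.90). Vcp, the segregase that works with TRIM21, was within 1.5-fold, at 304 CPM in T403A and 342 CPM in WT, with 7.26% of its exonic bases overlapped on the opposite strand.

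The TRIM genes were set beside other interferon-stimulated genes. Of the 44 measured genes on a list of interferon-stimulated genes without TRIM genes, all 44 were lower in T403A and none higher. Over all measured genes 10.8% were lower and 13.5% higher. Stat2, the altered gene, is 1 of the 44. The median log2 ratio of the list was -2.86, against -0.91 for the 10 TRIM genes. The ranges overlap, with Trim30d, at a log2 ratio of -3.04, below the median of that list, and the difference between the lists was not tested. These lists were chosen with earlier results of these libraries known, so the counts are not independent of them. The smallest fold on that list was that of Sp110, 2.16-fold lower (2.01 to 2.32), next to the 2.15-fold of Trim25, the fourth of the 10 TRIM genes by fold; exons of another gene overlap 5.78% of the exonic bases of Sp110 on the opposite strand. Ifitm3, with the next smallest fold, was 2.71-fold lower (2.63 to 2.80). The largest folds on the list were those of Oasl1 (131-fold, 81.4 to 225) and Ifi44 (98.8-fold, 63.8 to 162), and the 2 genes with the highest summed counts (not per length), Ly6e and Lgals3bp, were 4.84-fold and 5.06-fold lower. Among the 10 TRIM genes, those with a fold above that of Sp110 were Trim30d, Trim30a and Trim34a.

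**Figure D4:**
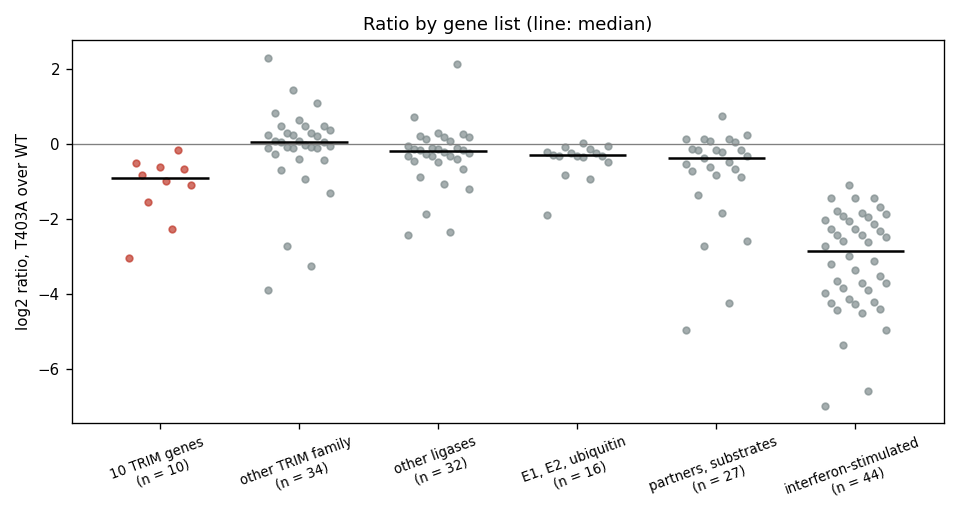
Log2 ratio of T403A over WT for each measured gene (points) and the median (line) in 6 gene lists, with the 10 TRIM genes in red. All 10 TRIM genes lie below 0 with TMM scaling (Trim26 reaches 0.01 with scaling by total counts), the other 34 TRIM family genes lie on both sides of 0, and all 44 interferon-stimulated genes lie below -1.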

How the data were processed

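The authors deposited whole-number read counts per Ensembl gene, 1 column per library, with a gene length in bases, per the file headers. GRCm38 is the build, and DESeq 1.30.0, HTSeq 0.9.1, HISAT2 and cutadapt 1.15 are the tools, listed in the submitters' processing notes, with tool roles, strand setting and RNA selection not given in the sources used here. Per the labels' protocols, 1 μg of DNase-treated total RNA was sequenced. The deposited length equalled the GENCODE M21 exon union for 96.9% of genes.

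Columns were matched by sample title. Symbols came from a table of Ensembl identifiers, and positions and overlaps from GENCODE M21. Counts were scaled with TMM (edgeR 4.0.16, R 4.3.3), and each ratio carries an exact 95% interval (Clopper-Pearson, scipy 1.17.1). With 1 library per group no test is possible, and intervals cover counting error only. They treat each read as an independent molecule. Reads without molecular identifiers need not be, so the intervals may be too narrow even for counting error. A count of 0 allows 3 counts, 0.150 CPM in T403A and 0.200 CPM in WT. Medians use a prior count of 0.5. The code was tested on simulated counts.

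Named were all 10 members, every other TRIM gene that met the rule or lies in the cluster, and, from each list other than the cell type markers, the 2 largest and 2 smallest ratios and the 2 highest counts. Marker lists are given by sums, with few genes named; others were named for their link to a member, after their values were seen. Members and lists were chosen with earlier results of these data known. Protein sequences were not analysed here, and some listed genes are not named. Alternatives were 3 other scalings, other count filters, a 2-fold rule, a prior count of 5 and TPM.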

Additional observations from a re-analysis of the deposited data

How the results depend on the processing

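Scaling by total counts raised the log2 ratio of every gene by 0.19 and changed the calls over all genes to 890 lower and 2290 higher, against 1214 and 1515 with TMM. Under it the median log2 ratio became -0.71 for the 10 TRIM genes, 0.24 for the other TRIM genes (7 of them higher and 5 lower, without Trim5), -0.12 for E1, E2 and ubiquitin genes, -0.20 for partners and substrates, -0.011 for other ligases and -2.67 for the interferon-stimulated genes. Trim12a and Trim56 then missed the 1.5-fold rule, and with upper-quartile scaling Trim56 missed it. DESeq2 size factors and a prior count of 5 changed no call among the 10 genes. With a 2-fold rule 4 of the 10 TRIM genes were lower (Trim14, at 1.98-fold, was not), as were 1 E1, E2 or ubiquitin gene and 6 partners, with 0 partners and 1 other ligase higher. The share of all measured genes that met the 2-fold rule was not computed, so these counts have no background beside them. A summed count of at least 100 left 1 other ligase higher. No count filter, and the 100-count filter, kept all 10 genes. Levels as TPM keep the order within a library. No library could be left out with 1 per group. No paired analysis was possible because each group has 1 library. Variation between animals and cultures is in no interval.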

Other observations

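Of 32 measured genes for ubiquitin ligases outside the TRIM family that act in innate immunity, 7 were lower in T403A, 2 were higher and 23 were within the rule's limits. The shares of 21.9% lower and 6.25% higher are set beside 10.8% and 13.5% over all measured genes. The median log2 ratio of these ligase genes was -0.20. Herc6 and Dtx3l, among the lower ones, are also on the list of interferon-stimulated genes. Herc6, the ISG15 ligase of mice, was at 22.4 CPM in T403A and 121 CPM in WT, 5.38-fold lower (4.84 to 5.98). Rnf213, a giant ligase with an ATPase core, was 5.11-fold lower (4.99 to 5.24). The higher genes were Nedd4, on 43 counts in T403A and 7 in WT (4.62-fold, 2.06 to 12.2), and Mib2 (1.63-fold, 1.48 to 1.79). Rnf128, one of the 2 genes of the list with the highest summed count, was within 1.5-fold, at 538 CPM in T403A and 446 CPM in WT.

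Of 16 measured genes for E1 and E2 enzymes and ubiquitin, 3 were lower in T403A and the other 13 were within the rule's limits. The lower share of 18.75% is set beside 10.8% over all measured genes. The E2 and E1 enzymes of ISG15 conjugation were among the 3. Ube2l6 was at 34.2 CPM in T403A and 128 CPM in WT, 3.75-fold lower (3.44 to 4.10), and Uba7 was 1.94-fold lower (1.83 to 2.05), with the limit that another gene overlaps 3.48% of its exonic bases on the same strand. Ube2d1, Ube2d3, Ube2l3 and Uba1 were within 1.5-fold, with ratios from 0.801 to 1.00. A limit for Ube2l3 is that exons of Ydjc overlap 28.6% of its exonic bases on the opposite strand.

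Trim38, known in mouse macrophages as a regulator of Toll-like receptor signalling, was listed at 0 counts in both libraries, which allows up to 0.150 CPM in T403A and 0.200 CPM in WT for the reads that were counted. Whether reads of this gene were lost in mapping or counting was not tested, so the 0 is not a measure of its expression.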
